A study of Mus musculus with 36 samples.

Results

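A set of 9 genes that mark the contractile cells of the vessel wall was followed in mouse heart, 4 of smooth muscle (Acta2, Myh11, Tagln and Cnn1) and 5 of pericytes (Abcc9, Kcnj8, Pdgfrb, Rgs5 and Cspg4). The 9 genes were chosen by name from 18762 NCBI Gene IDs quantified by RNA sequencing. All 9 were in the tables, and all 9 passed the filter used for testing, which was at least 1 FPKM (fragments per kilobase of transcript per 1e6 reads) in at least 3 libraries. Cnn1 passed it through only 7 libraries and was below 1 FPKM in the other 26.

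The hearts came from C57BL/6 mice 8 weeks old, on normal chow and a 12 h light and 12 h dark cycle, and were collected at zeitgeber time (ZT, counted in hours from lights on) 2, 6, 10, 14, 18 and 22. Animals labelled WT were Reverb fl/fl and animals labelled KO were Reverb fl/fl /MHC+, so both genotypes carried the floxed Rev-erb allele. MHC in such names usually means a myosin heavy chain promoter, active in cardiomyocytes, that drives Cre recombinase. Neither the promoter nor the recombinase is spelled out in the labels, and no MHC+ group without the floxed allele was present, so an effect of the transgene itself cannot be told apart from loss of Rev-erb. The groups analysed were 18 WT libraries at 6 times and 15 KO-labelled libraries at 5 times, 3 per group. KO at ZT22 is not analysed here, because its 3 tables repeated the KO ZT10 libraries as counts. Whether the libraries of a group were separate animals is not stated in the labels, and the p-values reflect only how far such libraries scatter, which may be technical.

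Smooth muscle cells of arteries and veins narrow the vessel by sliding actin along smooth muscle myosin, and most of their contractile genes are switched on by serum response factor (SRF) with its partner myocardin through a DNA element called the CArG box. Pericytes wrap the capillaries, are recruited by PDGF-B from the endothelium through the receptor PDGFRβ, and in the heart carry an ATP-sensitive potassium (KATP) channel. Acta2 is also made outside vessels, by activated fibroblasts (myofibroblasts) and, in development and stress, by cardiomyocytes. In bulk heart RNA, fewer cells of a type and less RNA per cell cannot be told apart.

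Acta2, the gene of smooth muscle α-actin (Gene ID 11475), spans chr19:34240336-34255585 on the minus strand of GRCm38, the assembly of mm10. Its promoter is shown because Acta2 carried the largest genotype difference among the 9 genes, and that of Cnn1, another SRF-driven gene, is shown beside it because Cnn1 did not pass the test. Both are RefSeq sequences on GRCm38.p6, 250 bases before to 50 after the annotated start, at chr19:34255324-34255623 on the minus strand and chr9:22099003-22099302 on the plus strand. Capitals mark matches to a CArG box with 1 G or C allowed in its A/T core.
Acta2: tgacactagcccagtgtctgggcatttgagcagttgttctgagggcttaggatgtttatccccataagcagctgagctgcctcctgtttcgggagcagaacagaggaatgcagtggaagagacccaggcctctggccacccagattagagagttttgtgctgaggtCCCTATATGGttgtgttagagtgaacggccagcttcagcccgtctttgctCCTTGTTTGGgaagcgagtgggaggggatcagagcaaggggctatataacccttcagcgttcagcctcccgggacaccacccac
Cnn1: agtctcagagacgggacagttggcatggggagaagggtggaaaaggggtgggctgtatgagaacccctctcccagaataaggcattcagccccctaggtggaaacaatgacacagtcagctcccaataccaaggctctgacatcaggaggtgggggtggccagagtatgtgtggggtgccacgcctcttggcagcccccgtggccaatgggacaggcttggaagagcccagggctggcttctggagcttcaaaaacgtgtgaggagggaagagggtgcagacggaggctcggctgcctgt

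The Acta2 window held 2 such matches, from -84 to -75 and from -34 to -25 relative to the annotated start, and the Cnn1 window held 0. For both genes the annotated start of the window lies inside the gene span given in this text, not at its 5' end. Both Acta2 matches therefore lie within the Acta2 span. Promoters were in the RefSeq table for 6 of the 9 genes (Acta2, Cnn1, Abcc9, Kcnj8, Rgs5 and Cspg4), and Acta2 was the one of these with a match. Of all 32851 promoters of the same length, 9.98% held the form with 1 G or C allowed. That form was added after the strict CArG box gave 0 matches in all 6 windows, against 1.63% of all promoters. The motif AGGTCA, the half-site bound by Rev-erb, and CACGTG, the E-box bound by the clock factors CLOCK and BMAL1, also gave 0 matches in the 6 windows on either strand, against 16.3% and 7.15% of all promoters. These counts describe the letters of these windows and say nothing of binding.

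Depth recovered from the steps of low values was 13.46 to 15.67 M reads (M, 1e6) in WT and 14.88 to 17.45 M in KO-labelled libraries. Nr1d1, which encodes Rev-erbα, ranged from 9.29 to 87.7 FPKM in WT and from 192 to 317 FPKM in KO-labelled libraries. A single value per gene does not show whether the floxed exons were removed, so the higher level does not decide whether Rev-erbα was lost. The highest Nr1d1 group mean was 5.68 times the lowest over 6 times in WT and 1.51 times over 5 times in KO-labelled hearts. For Nr1d2, the other Rev-erb gene, these ratios were 3.59 and 1.51. The 9 cardiomyocyte markers summed to 53574 to 59784 FPKM in WT and 54791 to 59873 FPKM in KO-labelled libraries. The atrial genes Myl7, Sln and Bmp10 averaged at most 0.40 FPKM in either genotype, but these were the 3 of 7 listed atrial genes below the filter. The other 4, Nppa, Myl4, Dkk3 and Stard10, passed it. All 7 summed to 183 to 418 FPKM in WT and 1857 to 4682 FPKM in KO-labelled libraries, mostly from Nppa. WT ZT2 replicate 1 had the lowest level of all 33 libraries for Kcnj8, Pdgfrb and Cspg4. For Cspg4 all 3 WT ZT2 libraries were low (1.94 to 2.45 FPKM). The calls of these genes and of Abcc9 that change without this library are given with both values. It was picked out by the values of these genes themselves, so the fits without it only show dependence on 1 library. Without WT ZT2 replicate 3, Pdgfrb was called at ZT2 (limma adjusted p = 0.0151) and ZT10 (0.0429), and Kcnj8 for genotype by time (0.0321).

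By level, averaged over the 15 WT libraries of the 5 times measured in both genotypes, Rgs5 led at 161 ± 10.8 FPKM (SD, n = 15). Acta2 followed at 95.8 ± 40.6, Abcc9 at 68.4 ± 6.15, Kcnj8 at 20.2 ± 2.79, Pdgfrb at 14.5 ± 2.27 and Tagln at 8.78 ± 0.819 FPKM. Myh11 at 3.95 ± 0.460, Cspg4 at 3.12 ± 0.678 and Cnn1 at 0.794 ± 0.242 FPKM were lowest. FPKM is a level per transcript length, so these levels can be set side by side. Neighbours in this order whose WT ranges overlapped were Rgs5 and Acta2, Acta2 and Abcc9, Kcnj8 and Pdgfrb, Pdgfrb and Tagln, and Myh11 and Cspg4. In the KO-labelled libraries Acta2, at 245 ± 63.6 FPKM, stood above Rgs5, at 161 ± 20.5 FPKM (SD, n = 15).

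Acta2 was higher in KO-labelled hearts at every time that could be compared, by 1.87-fold at ZT18 to 4.06-fold at ZT10 in group means. In WT the 3 libraries held 124, 120 and 70.2 FPKM at ZT2, 74.1, 106 and 47.9 FPKM at ZT6, and 45.8, 49.8 and 49.6 FPKM at ZT10. They then held 97.2, 85.8 and 96.7 FPKM at ZT14, 164, 151 and 156 FPKM at ZT18, and 179, 156 and 236 FPKM at ZT22. The WT level was thus lowest late in the light phase and highest late in the dark phase.

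In KO-labelled hearts Acta2 was at 274, 316 and 367 FPKM at ZT2, 205, 164 and 176 FPKM at ZT6, and 212, 222 and 155 FPKM at ZT10. The later libraries held 264, 217 and 227 FPKM at ZT14 and 336, 240 and 303 FPKM at ZT18. At each of the 5 times every KO-labelled library lay above every WT library of that time, which held for 7.98% of the 11790 genes tested. Over all 33 libraries the genotypes overlapped, because WT at ZT18 and ZT22 reached the lower KO-labelled values.

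**Figure D1:**
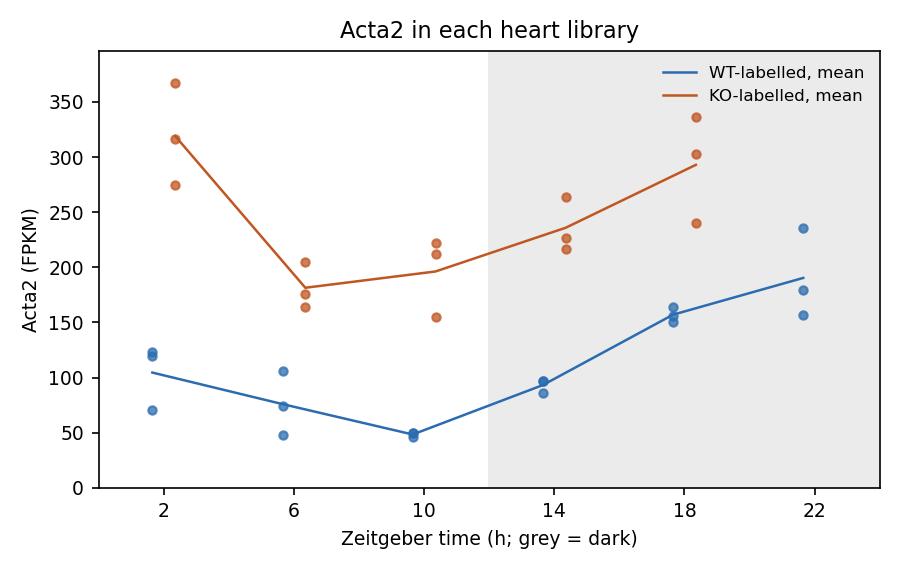
Acta2 level (FPKM, vertical axis) against zeitgeber time (h, horizontal axis) in each library, with WT in blue, KO-labelled in orange, lines through the means of 3 libraries and the dark phase in grey. The KO-labelled points lie above the WT points at each of the 5 shared times, and WT falls to 48.4 FPKM at ZT10 and climbs to 190 FPKM at ZT22.

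The mean difference in Acta2 over the 5 times was 1.43 ± 0.09 (SE; 95% CI 1.24 to 1.62) in log2(FPKM + 1), with limma adjusted p = 1.38e-13, and was positive at 5 of 5 times. By size it ranked 51 of the 11790 genes, and 32 among those that were higher. Each single time passed the test, with log2 differences of 1.63 at ZT2, 1.31 at ZT6, 1.98 at ZT10, 1.33 at ZT14 and 0.88 at ZT18 (SE 0.21 each). The largest limma adjusted p of the 5 was 1.54e-03, at ZT18.

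Of the 9 genes, 3 were called in the mean effect (2 higher, 1 lower), against 56.6% of all genes tested (33.2% higher, 23.4% lower). The share of the 9 is below the background, so the calls as a count do not set these genes apart. By time the count was 3 of 9 at ZT2 (background 29.9%), 3 at ZT6 (31.8%), 2 at ZT10 (27.8%), 3 at ZT14 (30.9%) and 4 at ZT18 (32.1%).

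**Figure D2:**
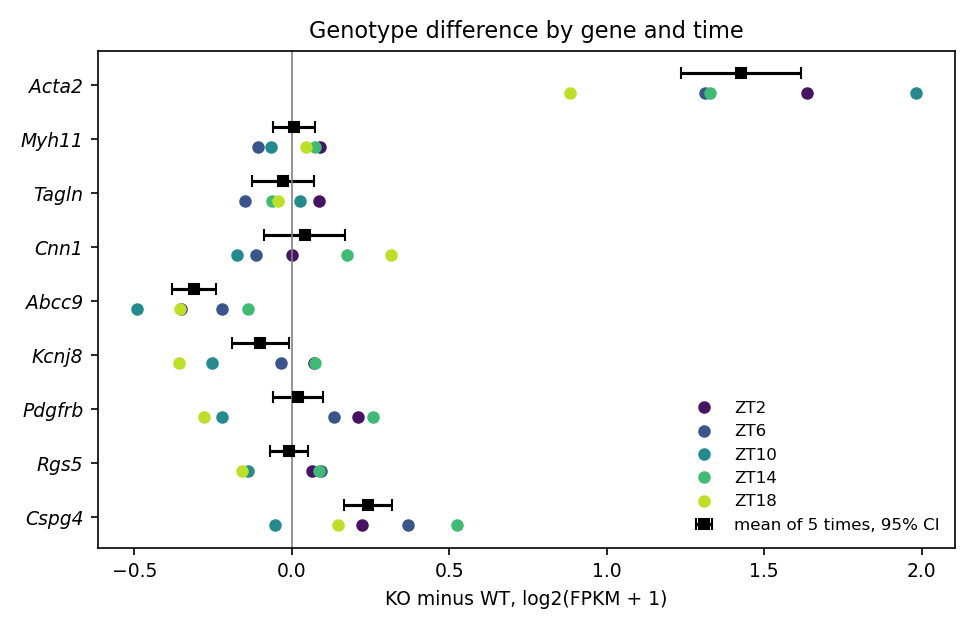
KO minus WT difference in log2(FPKM + 1) (horizontal axis) for each of the 9 genes (vertical axis). Black squares with bars are the mean over 5 times with its 95% confidence interval, and coloured points are the 5 single times. Acta2 stands at 1.43, Abcc9 at -0.31 and Cspg4 at 0.24, and the other 6 mean differences lie between -0.10 and 0.04.

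The other 3 smooth muscle genes did not pass the test in the mean effect. Myh11, the heavy chain of smooth muscle myosin (chr16:14194527-14292188), ranged from 3.04 to 4.70 FPKM in WT (median 4.02) and from 3.23 to 5.01 FPKM in KO-labelled libraries (median 3.94). The ranges overlapped almost fully, and the mean log2 difference was 0.01 ± 0.03 (SE; 95% CI -0.06 to 0.07; limma adjusted p = 0.868). Tagln, which encodes the actin-binding protein transgelin (SM22α), ranged from 7.41 to 10.2 FPKM in WT (median 8.56) and from 7.23 to 10.4 FPKM in KO-labelled libraries (median 8.49). Its mean log2 difference was -0.03 ± 0.05 (95% CI -0.13 to 0.07; limma adjusted p = 0.645).

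Cnn1, the smooth muscle calponin (chr9:22099221-22109221), ranged from 0.35 to 1.17 FPKM in WT and from 0.44 to 1.45 FPKM in KO-labelled libraries. The mean log2 difference was 0.04 ± 0.06 (SE; 95% CI -0.09 to 0.17; limma adjusted p = 0.6002). Rebuilt reads per library were 7 to 34 for Cnn1, 163 to 250 for Tagln, 237 to 426 for Myh11 and 1496 to 14024 for Acta2, so counting error is large for Cnn1. On this scale the intervals of Myh11, Tagln and Cnn1 all end below 0.20, whereas that of Acta2 begins at 1.24. The upper bound for Cnn1 also understates the fold, because its level is near the pseudocount of 1 FPKM.

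Tagln lies at chr9:45929628-45936058, where it overlaps Pcsk7 on the opposite strand by 99 bases and the antisense gene Gm48529 by 3627 bases. The labels name no stranded counting, so reads of these stretches cannot be told apart. Acta2 is 1 of 6 actin genes, and of its 2146 windows of 50 transcript bases, 7 (0.326%) also occur in Actg1 and 0 in Acta1, Actb, Actc1 or Actg2.

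The pericyte genes divided by gene and by time. Abcc9, the regulatory subunit SUR2 of the KATP channel (chr6:142587862-142702766), was lower in KO-labelled hearts. In WT its libraries held 58.7, 72.6 and 78.2 FPKM at ZT2, 67.7, 62.1 and 66.1 FPKM at ZT6, 80.1, 73.4 and 75.1 FPKM at ZT10, 68.8, 64.6 and 65.0 FPKM at ZT14, 64.7, 66.5 and 63.2 FPKM at ZT18, and 67.5, 68.4 and 60.5 FPKM at ZT22. In KO-labelled hearts they held 55.1, 55.0 and 52.4 FPKM at ZT2, 54.4, 56.1 and 57.2 FPKM at ZT6, 59.2, 54.8 and 48.2 FPKM at ZT10, 57.5, 56.3 and 66.6 FPKM at ZT14, and 49.3, 52.2 and 49.96 FPKM at ZT18. Every KO-labelled library lay below every WT library at 4 of 5 times, the exception being ZT14, where KO replicate 3 at 66.6 FPKM exceeded 2 WT libraries. How many of all genes lie wholly lower at 4 times was not counted, so the lack of overlap does not set Abcc9 apart.

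The mean log2 difference of Abcc9 was -0.31 ± 0.03 (SE; 95% CI -0.38 to -0.24; limma adjusted p = 8.39e-09), negative at 5 of 5 times, from 68.4 ± 6.15 to 54.9 ± 4.50 FPKM (SD, n = 15). Single times gave -0.35 at ZT2, -0.22 at ZT6, -0.49 at ZT10 and -0.35 at ZT18, all called by limma, and -0.14 at ZT14 (adjusted p = 0.178). The ZT6 call was lost without KO ZT6 replicate 1 (adjusted p = 0.0890) or 2 (0.0615) and without WT ZT6 replicate 1 (0.104) or 3 (0.0715). An antisense gene, 5330439B14Rik, overlaps 11868 bases of Abcc9, and its reads could not be told apart without strand. SUR2 is also made by cardiomyocytes, so this gene is not confined to the vessel wall.

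Kcnj8 encodes Kir6.1, the pore that pairs with SUR2 in vessels, and lies 16247 bases from Abcc9 on the same strand. It ranged from 13.8 to 23.8 FPKM in WT (median 19.97) and from 14.3 to 23.3 FPKM in KO-labelled libraries (median 18.3). The mean log2 difference was -0.10 ± 0.04 (95% CI -0.19 to -0.01), with limma adjusted p = 0.0539, and without WT ZT2 replicate 1 it was -0.13 with adjusted p = 6.14e-03. At ZT18, where WT held 19.8, 22.8 and 21.5 FPKM and KO-labelled hearts 14.3, 19.1 and 16.2 FPKM, the groups did not overlap and the log2 difference was -0.36 ± 0.10 (limma adjusted p = 5.88e-03). Without KO ZT18 replicate 1 that call was lost (-0.26, adjusted p = 0.0629). At ZT10 its log2 difference of -0.25 had adjusted p = 0.0563, and 0.0243 without WT ZT2 replicate 1. The share of all genes with no overlap at ZT18 was not counted, so the lack of overlap does not set Kcnj8 apart.

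The other KATP subunits were Kcnj11 and Abcc8, the pore Kir6.2 and the subunit SUR1. Kcnj11 rose from 72.1 to 75.9 FPKM (log2 0.07 ± 0.02 SE, limma adjusted p = 1.15e-03; 0.04 and 0.0539 with median-ratio scaling), and Abcc8 fell from 8.96 to 8.52 FPKM (-0.06 ± 0.03, adjusted p = 0.0439). Of the 4 subunits, 1 was called higher and 2 lower, too few genes to set against the 33.2% and 23.4% of all genes.

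Pdgfrb, the receptor through which endothelial PDGF-B recruits pericytes, had a genotype difference that changed sign over the day. In WT its libraries held 9.02, 12.5 and 13.1 FPKM at ZT2, 16.6, 14.9 and 16.1 FPKM at ZT6, 15.5, 16.4 and 17.4 FPKM at ZT10, 12.1, 13.7 and 12.5 FPKM at ZT14, 16.6, 15.4 and 15.04 FPKM at ZT18, and 15.9, 17.3 and 14.5 FPKM at ZT22. In KO-labelled hearts they held 13.1, 13.6 and 13.3 FPKM at ZT2, 17.4, 17.6 and 17.5 FPKM at ZT6, 14.9, 13.98 and 12.9 FPKM at ZT10, 15.1, 14.8 and 16.5 FPKM at ZT14, and 11.6, 13.8 and 12.8 FPKM at ZT18. The KO-labelled libraries lay wholly above WT at ZT2, ZT6 and ZT14 and wholly below at ZT10 and ZT18. How many of all genes part in such a way was not counted, so the lack of overlap does not set Pdgfrb apart.

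Over all 5 times the mean log2 difference of Pdgfrb was 0.02 ± 0.04 (SE; 95% CI -0.06 to 0.10; limma adjusted p = 0.694), while the F test of genotype by time gave limma adjusted p = 0.0106. Single times passed at ZT14 (0.26 ± 0.09, adjusted p = 0.0260) and at ZT18 (-0.28 ± 0.09, adjusted p = 0.0157). The differences of 0.21 at ZT2, 0.13 at ZT6 and -0.22 at ZT10 had adjusted p = 0.0743, 0.271 and 0.0610. The ZT14 call was lost without KO ZT14 replicate 3 (0.21, adjusted p = 0.114), WT ZT14 replicate 1 (0.0975) or WT ZT14 replicate 3 (0.0734), and also with median-ratio scaling (0.0540) and quantile normalization (0.0532). The ZT18 call was lost without KO ZT18 replicate 1 (-0.22, adjusted p = 0.0992) or WT ZT18 replicate 1 (-0.24, adjusted p = 0.0750). Without WT ZT2 replicate 1 the ZT10 difference was called (adjusted p = 0.0118).

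Cspg4, the proteoglycan NG2 on the pericyte surface (chr9:56865104-56899870), was higher in KO-labelled hearts at part of the day. In WT it was at 1.94, 2.21 and 2.45 FPKM at ZT2, 2.90, 3.26 and 3.06 FPKM at ZT6, 3.37, 4.22 and 4.22 FPKM at ZT10, 2.58, 2.98 and 2.88 FPKM at ZT14, 3.28, 3.75 and 3.77 FPKM at ZT18, and 3.56, 3.65 and 3.22 FPKM at ZT22. In KO-labelled hearts it was at 2.71, 2.61 and 2.87 FPKM at ZT2, 3.99, 4.22 and 4.59 FPKM at ZT6, 4.41, 3.33 and 3.54 FPKM at ZT10, 4.27, 4.45 and 4.73 FPKM at ZT14, and 4.49, 3.77 and 4.02 FPKM at ZT18. The groups did not overlap at ZT2, ZT6 and ZT14 and overlapped at ZT10 and ZT18. The share of all genes with such a pattern was not counted, so the lack of overlap does not set Cspg4 apart.

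Cspg4 had a mean log2 difference of 0.24 ± 0.04 (SE; 95% CI 0.17 to 0.32; limma adjusted p = 2.78e-06), positive at 4 of 5 times, and a genotype by time F test of limma adjusted p = 0.0218. The largest single difference was at ZT14 (0.52 ± 0.08, adjusted p = 1.54e-05), where group means were 2.81 and 4.48 FPKM. At ZT10 it was -0.05 ± 0.08 (adjusted p = 0.685). The call at ZT2 (0.22, adjusted p = 0.0434) was lost in 9 of its 40 alternatives. Those were no filter (adjusted p = 0.0685), median-ratio scaling (0.0722), quantile normalization (0.0780), the fit of that time alone (0.130), and leaving out WT ZT2 replicate 1 (0.16, adjusted p = 0.188), WT ZT2 replicate 2 or any KO ZT2 library.

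Rgs5, a pericyte-rich inhibitor of G protein signalling, was the most abundant of the 9 in WT and had no mean difference past the test (-0.01 ± 0.03 SE; 95% CI -0.07 to 0.05; limma adjusted p = 0.804). It ranged from 134 to 183 FPKM in WT (median 158) and from 133 to 189 FPKM in KO-labelled libraries (median 161). Relatives in the R4 family of RGS proteins did rise. Rgs2 went from 14.9 to 25.5 FPKM (log2 0.65 ± 0.06 SE, limma adjusted p = 6.56e-11) and Rgs3 from 15.6 to 26.8 FPKM (0.72 ± 0.03, adjusted p = 2.46e-17). Rgs4 was not called (-0.02 ± 0.04), and only 4 of the 9 family genes found passed the filter. That is too few to set against the 33.2% of all genes called higher.

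**Figure D3:**
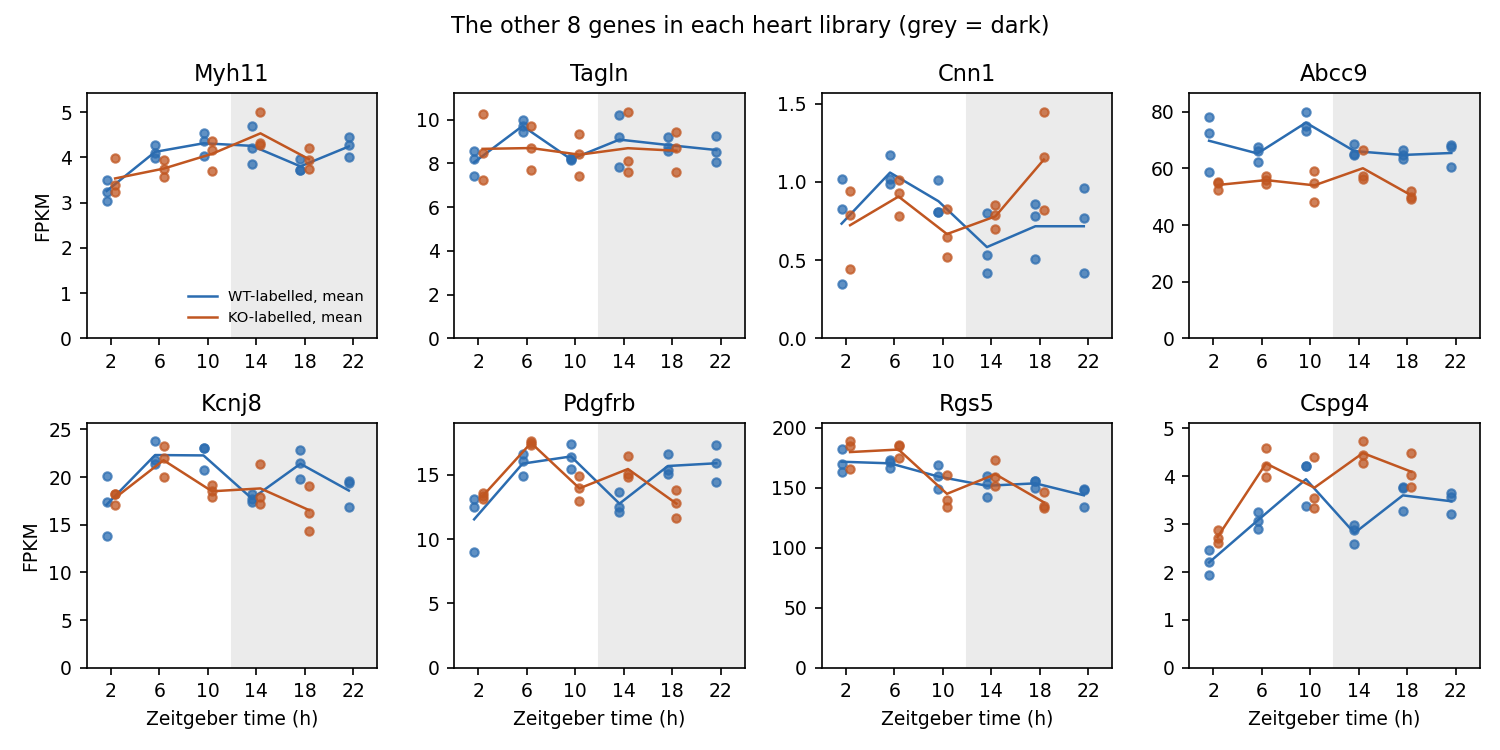
Level in FPKM (vertical axes, each from 0) against zeitgeber time (h, horizontal axes) for the 8 genes other than Acta2, with WT in blue, KO-labelled in orange, 1 point per library and lines through means of 3. Abcc9 in KO-labelled hearts lies below WT at most times, the Pdgfrb lines cross between ZT6 and ZT10 and again on both sides of ZT14, and Cspg4 differs most at ZT14.

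Genotype by time was called for 2 of the 9 genes (Pdgfrb and Cspg4), against 5.37% of all genes. Of the 9 genes 6 had an unadjusted p under 0.05 in this F test. The Cspg4 call was lost without WT ZT10 replicate 2 or 3 (limma adjusted p = 0.0510 for each). For Acta2 the F test gave limma adjusted p = 0.112, and without WT ZT6 replicate 3 it gave 0.0341. Abcc9 was at adjusted p = 0.176, and at 0.0317 without WT ZT2 replicate 1. Rgs5 had the same signs as Pdgfrb from ZT2 to ZT18 (log2 0.07, 0.09, -0.14, 0.09 and -0.16), with no single time called with all libraries. At ZT18 the Rgs5 difference (limma adjusted p = 0.0689) was called under 5 alternatives, among them median-ratio scaling (0.0439), quantile normalization (0.0469) and the fit of that time alone (0.0290). At ZT10 Rgs5 was called under 1, without KO ZT10 replicate 1 (0.0184). Its F test gave adjusted p = 0.124, and 0.0427 without KO ZT10 replicate 1. Kcnj8 was at adjusted p = 0.109 and was called under 2 alternatives. Markers of other cells moved over the same times. The 9 endothelial markers summed to 297 to 404 FPKM in WT and 306 to 397 FPKM in KO-labelled libraries, none was at 0 in every library, and 3 of 9 were called for genotype by time. Their mean sum, WT first, was 326 and 332 FPKM at ZT2, 365 and 390 FPKM at ZT6, and 344 and 323 FPKM at ZT10. It was 327 and 343 FPKM at ZT14, and 394 and 339 FPKM at ZT18. The endothelial sum thus differed in the same direction as Pdgfrb at all 5 times, so these signs are not particular to Pdgfrb or Rgs5. A link between them was not tested.

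The 5 red blood cell genes, all called for genotype by time, summed to 2982 to 6282 FPKM in WT and 2695 to 6121 FPKM in KO-labelled libraries. Their group means were 3392 and 5167 FPKM at ZT2, 5198 and 3138 FPKM at ZT6, and 5492 and 3959 FPKM at ZT18, WT first. The part of these cells in the changes of Pdgfrb and Cspg4 was not tested.

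Time of day within WT was called for 6 of the 9 genes (Acta2, Myh11, Kcnj8, Pdgfrb, Rgs5 and Cspg4), against 58.2% of all genes. The same 6 were called within KO-labelled hearts, against 45.7%. Of these KO calls, that of Kcnj8 was lost with no filter (limma adjusted p = 0.0535), with median-ratio scaling (0.0872) and without any of 4 KO-labelled libraries, and that of Myh11 without KO ZT2 replicate 2 (0.0636) or KO ZT14 replicate 1 (0.0934). Abcc9, at adjusted p = 0.0699 in WT and 0.0988 in KO-labelled hearts, was called in both without WT ZT2 replicate 1 (4.78e-03 and 0.0284). With all libraries Abcc9 was not called in WT from ZT6 to ZT10 (0.22, adjusted p = 0.0826), ZT10 to ZT14 (-0.20, 0.0890) or ZT22 to ZT2 (0.08, 0.448). Without WT ZT2 replicate 1 these steps were called, at 0.22 (adjusted p = 0.0276), -0.20 (0.0318) and 0.20 (0.0401).

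Acta2 had limma adjusted p = 1.61e-07 in WT and 6.97e-03 in KO-labelled hearts, with group means from 48.4 ± 2.28 FPKM at ZT10 to 190 ± 40.9 FPKM at ZT22 in WT (3.94-fold; SD, n = 3). In KO-labelled hearts they ran from 181 ± 21.1 FPKM at ZT6 to 319 ± 46.5 FPKM at ZT2 (1.76-fold over the 5 times).

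Between neighbouring times in WT, Acta2 rose from ZT10 to ZT14 by 0.93 (limma adjusted p = 3.63e-03) and from ZT14 to ZT18 by 0.75 (adjusted p = 0.0102). From ZT22 to ZT2 it fell by 0.88 (adjusted p = 2.34e-03). For the 9 genes as a whole the counts of calls were 4 from ZT2 to ZT6 (background 16.4%), 1 from ZT6 to ZT10 (6.94%), 4 from ZT10 to ZT14 (11.5%), 3 from ZT14 to ZT18 (23.2%) and 5 from ZT22 to ZT2 (27.5%). From ZT18 to ZT22 limma called 0 of the 9 (background 6.39%), with 0 at an unadjusted p under 0.05.

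A 24 h cosine gave Acta2 an amplitude (mean to peak) of 0.90 log2 units with a peak at ZT20.8 in WT (limma adjusted p = 4.70e-08), the rank 20 amplitude of 11790 genes. Over the 5 times of KO-labelled hearts the amplitude was 0.48 with a peak at ZT21.4 (adjusted p = 9.67e-03), and the test of the difference between genotypes gave adjusted p = 0.257.

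Acta2 was the 1 gene of the 9 called by the cosine test in WT, against 38.6% of all genes, and 1 more, Rgs5, had an unadjusted p under 0.05. In KO-labelled hearts, against 26.9% of genes, Myh11 passed with an amplitude of 0.13 and a peak at ZT13.4 (limma adjusted p = 0.0420) and Rgs5 with 0.16 and a peak at ZT3.68 (adjusted p = 6.19e-03). The Myh11 call was lost in 13 of its 39 alternatives, with no filter (adjusted p = 0.0639), with the replicate block renumbered by the column headers (0.0536) and without any of 11 KO-labelled libraries (up to 0.132, without KO ZT2 replicate 2). Cspg4 was not called with all libraries (adjusted p = 0.0656). It was called under 4 alternatives, among them leaving out WT ZT2 replicate 1 (adjusted p = 0.0466). The difference in rhythm was called by limma for 0 of the 9 genes and for 1.09% of all genes, and 2 of the 9, Acta2 and Cnn1, had an unadjusted p under 0.05.

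Pdgfrb and Cspg4 were lowest in WT at ZT2 and ZT14, and the 24 h cosine test called neither (limma adjusted p = 0.730 and 0.193). Group means of Kcnj8 in WT were 17.1, 22.3, 22.3, 17.7, 21.4 and 18.6 FPKM from ZT2 to ZT22. Kcnj8 was thus low at ZT22 as well as at ZT2 and ZT14. Group means of Pdgfrb were 11.5, 15.9, 16.4, 12.8, 15.7 and 15.9 FPKM from ZT2 to ZT22. It rose from ZT2 to ZT6 (log2 0.44 ± 0.09 SE, limma adjusted p = 8.12e-04), fell by 0.34 from ZT10 to ZT14 (adjusted p = 0.0112) and rose by 0.28 from ZT14 to ZT18 (adjusted p = 0.0227). From ZT22 to ZT2 it fell by 0.44 (adjusted p = 4.95e-04). The fall to ZT14 was lost without WT ZT10 replicate 3 (adjusted p = 0.0599) or WT ZT14 replicate 1 (0.0526), and the rise to ZT18 without WT ZT14 replicate 1 (0.0905), WT ZT14 replicate 3 (0.0659) or WT ZT18 replicate 1 (0.0983).

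Cspg4 took the same steps, up by 0.35 from ZT2 to ZT6, down by 0.37 from ZT10 to ZT14, up by 0.27 from ZT14 to ZT18 and down by 0.49 from ZT22 to ZT2, with limma adjusted p from 1.01e-04 to 0.0202. Unlike Pdgfrb (0.05, adjusted p = 0.809), Cspg4 also rose from ZT6 to ZT10 (0.27, adjusted p = 0.0458), a call lost in 14 alternatives. Its rise to ZT18 was lost without WT ZT14 replicate 1 (adjusted p = 0.0969), WT ZT18 replicate 2 (0.0665) or WT ZT18 replicate 3 (0.0765). Kcnj8 went up by 0.38 from ZT2 to ZT6 (adjusted p = 8.41e-03) and down by 0.31 from ZT10 to ZT14 (adjusted p = 0.0384). It was not called from ZT22 to ZT2 (-0.13, adjusted p = 0.361). Its first step was lost without WT ZT2 replicate 1 (0.24, adjusted p = 0.101). Its later step was lost in 7 of its 40 alternatives, with no filter (adjusted p = 0.0659), with median-ratio scaling (0.0609) and without WT ZT10 replicate 2 (0.122), WT ZT10 replicate 3 (0.118) or any WT ZT14 library. From ZT14 to ZT18 Kcnj8 was not called with all libraries (0.25, adjusted p = 0.0614). It was called only under 6 alternatives, among them leaving out WT ZT2 replicate 1 (0.25, adjusted p = 0.0277). The endothelial markers had mean sums in WT of 326, 365, 344, 327, 394 and 374 FPKM from ZT2 to ZT22, also lowest at ZT2 and ZT14, and their part in these courses was not tested.

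Myh11 was lowest at ZT2, at 3.26 ± 0.231 FPKM (SD, n = 3), and rose to ZT6 by 0.27 (limma adjusted p = 0.0106), a call lost with quantile normalization (0.0563) and without WT ZT2 replicate 2 (0.0536). Rgs5 ran the other way, highest at ZT2 (172 ± 9.99 FPKM) and lowest at ZT22 (144 ± 8.59 FPKM), with a rise of 0.26 from ZT22 to ZT2 (adjusted p = 4.70e-03).

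The other actins were set beside Acta2 by genotype and by time. Of 5 actin genes past the filter, Acta2 and cardiac actin Actc1 were called higher, against 33.2% of all genes. Actc1 went from 11535 to 12277 FPKM (log2 0.10 ± 0.02 SE, limma adjusted p = 1.14e-04). Skeletal actin Acta1 averaged 602 ± 177 FPKM in WT and 496 ± 155 FPKM in KO-labelled libraries (SD, n = 15; log2 -0.28 ± 0.13 SE, adjusted p = 0.0611). Median-ratio scaling called Acta1 lower (-0.31, adjusted p = 0.0381), and quantile normalization left Actc1 at 0.00. The cytoplasmic actins Actb (0.05 ± 0.03) and Actg1 (0.07 ± 0.04) were not called, and Actg2, the enteric smooth muscle actin, was below 1 FPKM in all 33 libraries.

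Over the day in WT all 5 were called, against 58.2% of all genes. Acta1 reached 1626 ± 15.8 FPKM at ZT22 (SD, n = 3), 4.05 times its ZT2 mean. Actc1 was highest at ZT22 and lowest at ZT10, as were Acta2 and Actg1, with ratios of highest to lowest group mean of 1.52 for Actc1, 3.94 for Acta2 and 1.34 for Actg1. Actb was also lowest at ZT10 and was highest at ZT2.

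**Figure D4:**
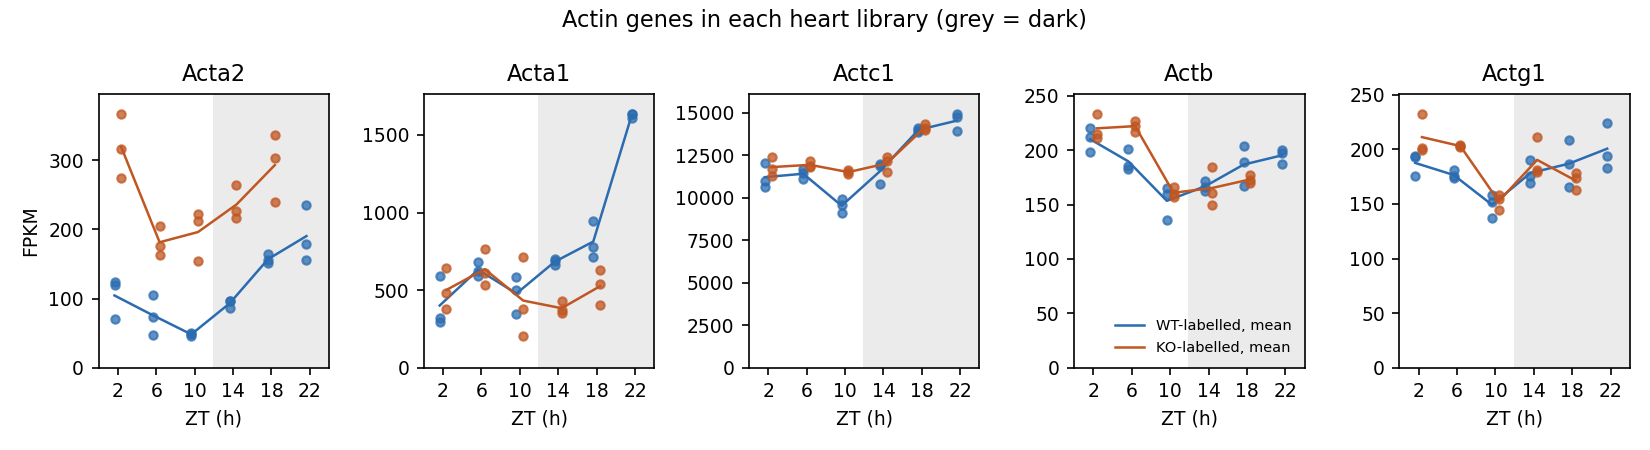
Level in FPKM (vertical axes, each from 0 on its own scale) of 5 actin genes against zeitgeber time (h, horizontal axes), with WT in blue and KO-labelled in orange, 1 point per library and lines through means of 3. In WT, Acta2, Actc1, Actb and Actg1 are lowest at ZT10 and Acta1 reaches 1626 FPKM at ZT22, while Acta2 is the panel in which the genotypes stand apart at all 5 shared times.

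A list drawn up as further smooth muscle contractile genes split both ways. Of 20 listed genes 17 passed the filter, 4 were called higher and 3 lower, against 33.2% and 23.4% of all genes. Their median log2 difference was 0.00 against 0.02 over all genes tested. The called genes were Sh3bgr (161 to 275 FPKM, 0.78 ± 0.03 SE), the myosin light chain Myl9 (17.0 to 21.5 FPKM, 0.34 ± 0.06), vinculin Vcl (0.11) and tropomyosin Tpm1 (0.05), and on the lower side Pcp4l1 (217 to 136 FPKM, -0.67 ± 0.03), the receptor modifier Ramp1 (3.16 to 1.86 FPKM, -0.54 ± 0.06) and synaptopodin 2, Synpo2 (-0.22 ± 0.04). Under median-ratio scaling and quantile normalization 6 and 5 genes of this list were called lower, and Tpm1 was not called. Smoothelin, Smtn, was at -0.01 ± 0.03, and the kinase Mylk at -0.06 ± 0.04. Cardiomyocytes express several of these genes, Tpm1 at 8981 FPKM in WT among them. Sh3bgr, Pcp4l1 and Ramp1 are not themselves contractile genes, so the split is not one of contractile genes alone. Without these genes the calls were Myl9, Vcl and Tpm1 higher and Synpo2 lower.

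Among 12 measured regulators of the SRF and myocardin programme, 4 were called higher and 3 lower (median log2 -0.01), against 33.2% and 23.4% of all genes. The count is near that background. Myocd, the gene of myocardin, rose from 11.4 to 14.5 FPKM (0.34 ± 0.03 SE, limma adjusted p = 7.65e-10), Smad3, Heyl and Srf by 0.15, 0.12 and 0.06. Mrtfb and Foxo4 fell by 0.27 and 0.26, and Tead1 fell by 0.07. Srf itself was at 44.2 FPKM in WT and 46.1 FPKM in KO-labelled libraries, and its call was lost with median-ratio scaling (0.03, adjusted p = 0.260).

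Of 16 further pericyte genes, 1 was called higher and 5 lower, against 33.2% and 23.4% of all genes, with a median log2 difference of -0.05. Art3, an ADP-ribosyltransferase family gene, fell from 280 to 155 FPKM (-0.85 ± 0.05 SE, limma adjusted p = 4.51e-15). The lower calls beside it were small, Anpep at -0.17, the potassium channel Kcnk3 at -0.14, Cox4i2 at -0.13 and Steap4 at -0.11. The connexin Gja4 was higher by 0.15, a call lost with quantile normalization (adjusted p = 0.0571). Art3 and Kcnk3 stood at 280 and 121 FPKM in WT, against 21.5 FPKM for the next gene of this list, Ndufa4l2. Which cells made these RNAs was not tested. Of the 6 PDGF ligands and receptors only Pdgfd was called, against 56.6% of all genes. It fell from 6.66 to 4.97 FPKM (-0.36 ± 0.03, adjusted p = 5.04e-11). Pdgfb, the pericyte recruiting ligand, was at 19.3 and 18.5 FPKM (-0.06 ± 0.03, adjusted p = 0.114; called with median-ratio scaling at -0.09, adjusted p = 0.0227). In the calponin and transgelin family 1 of 5 measured genes was called, against the same 56.6%. That gene was Cnn3, from 23.7 to 29.8 FPKM (0.32 ± 0.03, adjusted p = 1.34e-11).

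**Figure D5:**
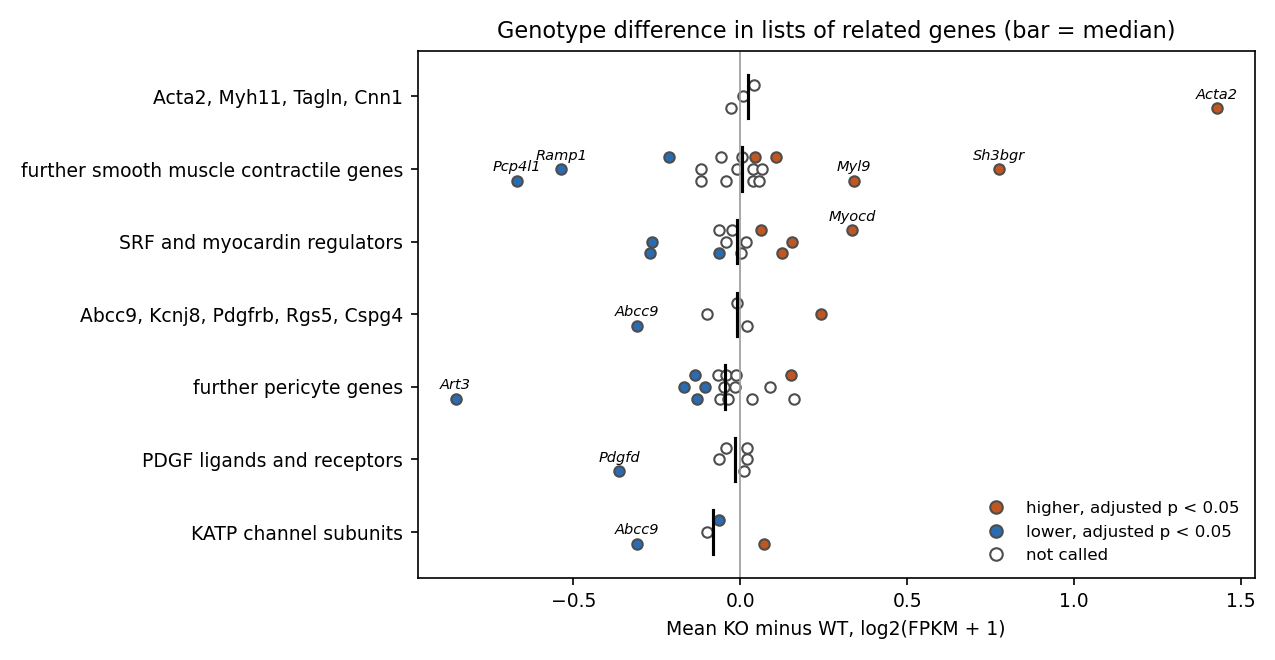
Mean KO minus WT difference in log2(FPKM + 1) (horizontal axis) of each measured gene in 7 lists (vertical axis), filled orange where called higher, blue where called lower and open where not called, with a black bar at each list's median. Acta2 at 1.43 lies apart from the other genes of its row, and Art3 at -0.85 is the lowest gene shown.

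Markers of other cells, those that can also make Acta2 among them, are read against the background of 33.2% of all genes called higher and 23.4% lower. Of 6 myofibroblast markers 4 passed the filter and 3 were called higher, Thbs4 (1.49 to 6.07 FPKM, log2 1.51 ± 0.06 SE), Postn (0.40 ± 0.06) and Comp (0.25 ± 0.07). The 6 summed to 18.6 to 24.3 FPKM in WT and 23.6 to 35.7 FPKM in KO-labelled libraries, and none was at 0 in every library, though Cthrc1 and Tnc averaged below 1 FPKM. With 4 genes tested, this count is too small to set against the background, and so are those of the other short lists. Of 9 fibroblast markers 5 were called higher and 1 lower, and their sum was 837 to 1045 FPKM in WT and 807 to 1097 FPKM in KO-labelled libraries. The 9 cardiomyocyte markers gave 4 higher and 4 lower.

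Endothelial markers had 3 of 9 higher and 2 lower, near the background, and 1 higher and 3 lower under both median-ratio scaling and quantile normalization. Macrophage markers had 1 of 8 higher, Schwann cell markers 1 higher and 1 lower of 3, mesothelial markers 1 of 5 lower, and adipocyte (1 measured) and red blood cell markers (5 measured) 0 by limma, also at an unadjusted p under 0.05. Quantile normalization called 4 of the 5 red blood cell genes lower and 1 rather than 4 of the cardiomyocyte markers higher. In the atrial list 3 of 4 were higher and 1 lower, led by the natriuretic peptide Nppa, a gene that stressed ventricle also makes, from 286 to 2819 FPKM. The part of any of these cells in the Acta2 difference was not tested.

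Several of the pericyte genes varied together between replicates. With each group's mean removed, 36 pairs among the 9 genes were correlated over 33 libraries, with p from 100000 permutations within groups and Benjamini-Hochberg adjustment over the 36. Abcc9 and Pdgfrb had r = 0.76 (permutation adjusted p = 0.0201) and rho = 0.64 (0.0417), and r = 0.59 without the 2 libraries farthest from the median. Kcnj8 had r = 0.73 with Pdgfrb (rho = 0.63) and 0.70 with Abcc9 (rho = 0.58), and 0.55 and 0.52 without 2 libraries, with adjusted p = 0.0201 for each r and 0.0371 and 0.0484 for the rho.

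Abcc9 and Rgs5 had r = 0.67 (adjusted p = 0.0201) and rho = 0.73 (adjusted p = 3.24e-03), and r = 0.75 without 2 libraries. The one smooth muscle pair past the threshold was Acta2 with Tagln, at r = 0.45 (adjusted p = 0.0277), rho = 0.57 (0.0371) and r = 0.46 without 2 libraries. Acta2 with Kcnj8 had r = -0.54 with adjusted p = 0.0921. These libraries share dissection, depth and tissue makeup, so the correlations describe libraries.

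The genes whose scatter within groups was most like the mean of the 5 pericyte genes, among 7562 genes with a mean of 5 FPKM or more, were Abca8a (Pearson r = 0.89 over 33 libraries), Crispld2 (0.83), H1f0 (0.81), Afdn (0.81), Sparcl1 (0.80) and Marcks (0.79). For the mean of the 4 smooth muscle genes they were BC003965 (0.73), Phb2 (0.72), Anxa2 (0.71), Tmub1 (0.68), Sema3f (0.68) and Ndufb3 (0.67). For Acta2 alone they were Mrpl15 (0.78), Serpine2 (0.76), Gbe1 (0.75), Ecm1 (0.74), BC003965 (0.73) and Zfp672 (0.71). None of the 6 nearest to Acta2 was in the smooth muscle or pericyte lists. Each set holds the highest of 7562 correlations, and no chance level was worked out for them, so they give a ranking only. The mean of the 4 smooth muscle genes includes Cnn1, whose counting error is large.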

How the data were processed

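Total RNA of flash frozen hearts was made into Illumina TruSeq libraries, per the labels' protocols, and the submitters' processing notes name mm10 as the build. Which aligner, counter and annotation were used is not given in the sources used here. The authors deposited 33 tables whose values fit FPKM, a unit inferred from the values, and 3 tables of expected counts, recorded for KO ZT22 but named for KO ZT10 per the file headers. Zero and nonzero genes of these counts fell together with the same-named KO ZT10 FPKM for 99.957 to 99.963% of genes, against 92.4 to 92.9% in other pairs. They were used only to rebuild reads. In 1 table, 1 extra column of per-sample values was left unused. Of 18762 IDs, 18623 were named from RefSeq.

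FPKM were tested with limma 3.58.1 (R 4.3.3; trend) on log2(FPKM + 1), which understates the change of low genes. A gene was tested if 3 or more libraries reached 1 FPKM, which kept 11790, and the Benjamini-Hochberg threshold was 0.05. Means of the 11 groups (22 residual degrees of freedom) were contrasted for the mean effect over 5 times, each time, genotype by time and time of day, and a 24 h cosine model (27 residual degrees) gave rhythms. Depth was recovered from steps of low FPKM, of which 68.3 to 79.4% lay within 0.15 of a whole read. Alternatives were other filters, other scalings, edgeR 4.0.16 on rebuilt reads rounded to whole numbers, a replicate block, single-time fits and leaving out each library. The fits were tested on simulated data. Beside the 9 genes, named genes were the called genes with the largest mean effect in each list, up to 4 each way, and the 6 most alike in scatter. A few uncalled list genes, Smtn, Mylk, Pdgfb, Rgs4, Actb and Actg1 among them, were also named, chosen after their values were seen. Lmod1, Klf5 and other listed genes under the filter got no test. The 9 genes and the 20 lists were chosen with earlier results of these data known. Correlations and figures used Python 3.11.15, scipy 1.17.1 and matplotlib 3.10.9.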

Additional observations from a re-analysis of the deposited data

Results flagged for a closer look

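Pdgfrb was set aside because its KO minus WT difference was not the same at all times (F test of genotype by time, limma adjusted p = 0.0106; range over alternatives and left-out libraries 1.29e-03 to 0.0275). It was higher in KO-labelled hearts at ZT2, ZT6 and ZT14 and lower at ZT10 and ZT18, with no overlap of libraries at any of the 5 times. The share of all genes with no overlap in mixed directions was not counted, so the lack of overlap does not set Pdgfrb apart. The mean sum of the endothelial markers differed in the same directions at these times.

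Cspg4 was set aside for the same reason (limma adjusted p = 0.0218; range 5.14e-03 to 0.0510), with the difference largest at ZT14 and absent from the calls at ZT10 and ZT18. The upper end of that range, past the threshold, came without WT ZT10 replicate 2 or 3. Groups held 3 libraries, too few for a search for outlying libraries.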

How the results depend on the processing

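The mean effects of Acta2 (1.37 to 1.48), Abcc9 (-0.35 to -0.29) and Cspg4 (0.22 to 0.31) kept direction and call under every alternative that tested them. No result reversed. The count of the 9 genes called lower in the mean effect, 1 as reported, was 2 with a mean of at least 5 FPKM, median-ratio scaling, quantile normalization or edgeR on rebuilt counts, because Kcnj8 was added. With the mean filter, which removes Cspg4, Myh11 and Cnn1, counts were 1 rather than 2 higher, 1 rather than 2 for genotype by time, 2 rather than 4 for WT ZT6 minus ZT2, and 3 rather than 5 for WT ZT2 minus ZT22. The WT ZT10 minus ZT6 count, 1 as reported, was 0 with no filter, with the mean filter and with quantile normalization. With only the 6 libraries of ZT10, 4 rather than 2 were called there. Higher and lower calls over all genes were 3916 and 2763 as deposited, 3349 and 3341 after median-ratio scaling, 3287 and 3418 after quantile normalization and 3328 and 3380 by edgeR, and the median of all genes moved by -0.02 to -0.03.

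Replicate numbers do not pair the libraries (same-number r from -0.17 to 0.15, 2 of 15 pairs over 0.1). The replicate block gave 2 genes lower instead of 1 (Kcnj8, -0.10, adjusted p = 0.0490). A replicate block with the WT ZT14 numbers of the column headers, chosen after seeing the data, also gave 2, and gave 0 for WT ZT10 minus ZT6.

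Leaving out 1 library at a time gave 1 to 2 genes lower in the mean effect, 2 to 4 called at ZT10, 2 to 5 at ZT18, and 1 to 3 for genotype by time. Within WT it gave 0 to 2 for ZT10 minus ZT6, 2 to 5 for ZT14 minus ZT10, 1 to 4 for ZT18 minus ZT14, and 1 to 2 for the cosine. All genes called for genotype by time, 633 as reported, ranged from 411 (without KO ZT18 replicate 3) to 964 (without WT ZT2 replicate 1). The causes were not tested. Depth limits Cnn1 most.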
